A study of Mus musculus with 5 samples.

Results

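The genes described here encode the subunits of the oxidative phosphorylation complexes that are carried by the nuclear genome. They were chosen by symbol, as genes named Nduf, Sdh, Uqcr, Cox4 to Cox8 or Atp5 in the style of a subunit, with at least 20 unique molecular identifiers (UMIs) in 1 library. Of 32285 genes listed, 83 had such a name and 82 reached the count, of which 36 were counted with complex I, 4 with complex II, 8 with complex III, 17 with complex IV and 17 with complex V. Cox8c, the testis form of subunit 8, had 0 UMIs in every library and was left out. The lowest genes that were kept were Cox4i2, Cox7b2 and Cox7a1, with up to 34, 41 and 70 UMIs in 1 library. The choice used no comparison between stages or genotypes.

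Oxidative phosphorylation makes ATP from the oxidation of fuels in the inner mitochondrial membrane, and it is the main ATP source of oxidative muscle fibers. Complexes I and II pass electrons from NADH and succinate to ubiquinone, complex III passes them to cytochrome c, complex IV passes them to oxygen, and complex V uses the proton gradient to make ATP. Complex II is built from nuclear genes alone, whereas the other complexes also hold subunits encoded in mitochondrial DNA. Several complex IV subunits exist as a ubiquitous form and as a form of heart and skeletal muscle.

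Each nucleus gave both its RNA and its open chromatin (10x Genomics multiome), and the nuclei came from skeletal muscle of mouse hindlimbs. The 5 libraries came from C57bl6n WT embryos at E14.5 (56 pooled hindlimbs), WT fetuses at E18.5 (14), WT pups at P5 (8), WT adults aged 8 weeks (4), and Cacna1s-/- fetuses at E18.5 (26), referred to as KO. Cacna1s encodes the pore-forming subunit of the L-type calcium channel of skeletal muscle, which couples excitation to contraction. The study sorted PCM1-positive and PCM1-negative nuclei and mixed them, so the share of muscle nuclei was set by that mixture. With 1 library per group, no difference between groups has a replicate check, no test was made, and every interval given here covers counting error only.

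Levels were read in nuclei with at least 1% of their gene UMIs from Ttn, which encodes the sarcomeric protein titin. There were 1867, 1579, 1733, 4429 and 987 such nuclei, with the WT libraries given by age and KO last, as in every series of 5 values that follows. They held 10156121 to 19758491 UMIs per library, with medians of 3356 (adult) to 10333 (KO) UMIs per nucleus. All 10 myonuclear markers were detected in every library. Markers of other cells were present as well, and the 10 mesenchymal markers summed to 180, 1283, 1361, 40.5 and 436 CPM (UMIs of the genes per 1000000 UMIs), and the 8 myogenic progenitor markers to 417, 167, 76.1, 14.3 and 325 CPM. Between 1 and 15 barcodes of these nuclei were shared by a pair of libraries. Cacna1s had 2107, 2390, 4268, 6440 and 8 UMIs, so the KO library matched its label. In these nuclei 79 of the 82 subunit genes reached 20 UMIs in 1 library, and Cox4i2, Cox7b2 and Cox6b2 did not.

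Together the 82 genes made up 1971, 3661, 2798, 2477 and 3012 CPM, with 95% Poisson intervals of 1944 to 1998, 3628 to 3695, 2768 to 2828, 2455 to 2499 and 2980 to 3045. The WT sum was highest at E18.5 and lowest at E14.5. CPM are shares of the RNA of these nuclei, so less RNA of a gene and more RNA of other genes cannot be told apart. Gene by gene, 68 of the 82 had their highest WT level at E18.5 and 0 their lowest there, while 37 were lowest at E14.5 and 43 in adult. Counts by highest or lowest stage over all genes are not given, here or below. Other genes leaned the same way. Of measured genes of like level and gene length, 69.5% were higher at E18.5 than at E14.5 and 80.4% were lower at P5 than at E18.5. For the measured subunit genes these shares were 100% and 92.4%. In the median nucleus the 82 genes had 1814, 3408, 2597, 2163 and 2522 CPM, with the same order of WT stages. The WT order also held in nuclei with over 5000 UMIs (1914, 3531, 2741 and 2571 CPM) and in those with 2000 to 5000 UMIs (2065, 4632, 3183 and 2367 CPM), whereas in those with 400 to 2000 UMIs adult was the lowest (2506, 5360, 2873 and 2104 CPM).

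The summed levels of the complexes parted after birth, though the complexes also differ in the length of their genes. Complex II stood at 164, 386, 313, 357 and 278 CPM, so that its adult level was 2.17 times the E14.5 level (2.06 to 2.29) and 0.923 times the E18.5 level (0.890 to 0.958). Complex IV stood at 374, 691, 411, 249 and 547 CPM, with an adult level 1.502-fold below E14.5 (1.44 to 1.57) and 2.77-fold below E18.5 (2.68 to 2.87). Complex I, with 748, 1261, 1037, 1050 and 1081 CPM, and complex V, with 520, 1023, 803, 659 and 856 CPM, lay in adult 1.40 (1.37 to 1.44) and 1.27 times (1.23 to 1.31) above E14.5. Complex III, with 164, 300.5, 233, 163 and 250.2 CPM, was in adult at 0.989 times its E14.5 level (0.932 to 1.05). In complex II, Sdha, Sdhc and Sdhb span 28027, 23439 and 17991 bp and Sdhd 7456 bp. Complex IV holds short genes such as Cox7c and Cox8a (2089 and 2464 bp) beside longer ones such as Cox5a and Cox7a2l (11153 and 15413 bp). Short genes were lower in adult (below), and the part of length in the split between complexes was not tested.

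**Figure D1:**
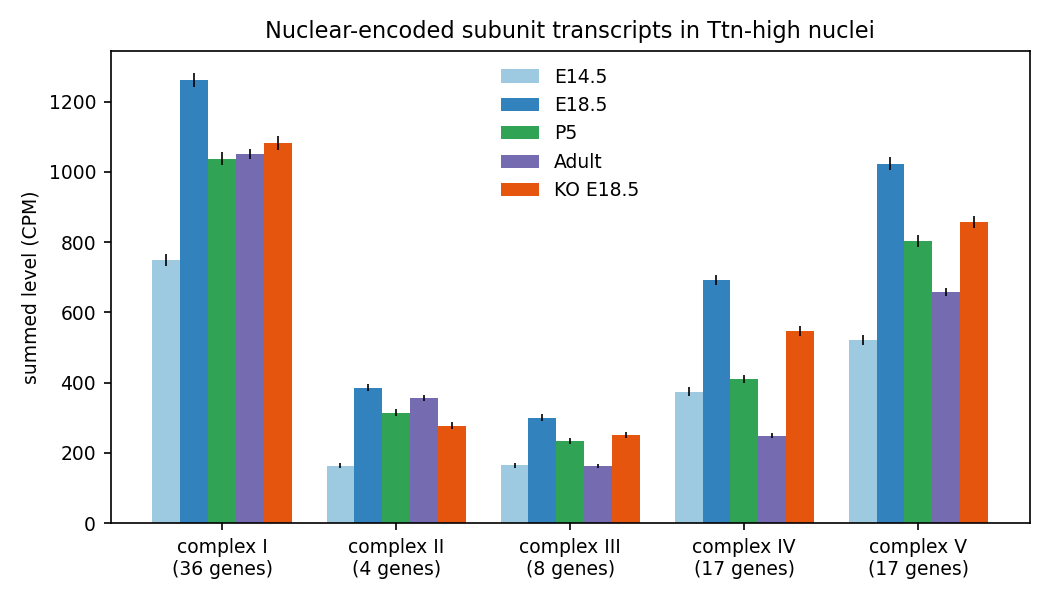
Summed level in CPM of the genes of each complex in Ttn-high nuclei (vertical axis, from 0), with 1 bar per library (WT by age, then KO at E18.5) and 95% Poisson intervals as error bars. Every complex was highest at E18.5 among WT libraries, and complex IV stood at 691 CPM there and at 249 CPM in adult while complex II stood at 386 and 357 CPM.

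The muscle forms of complex IV differed among themselves in how they changed with age. Cox7a1, the heart and muscle form of subunit 7a (mm10, chromosome 7, 30184144 to 30186078, plus strand), had 1, 41, 49, 23 and 17 UMIs, or 0.0985, 3.24, 4.01, 1.16 and 1.53 CPM. Cox8b, the muscle form of subunit 8 (chromosome 7, 140898945 to 140900446, minus strand), had 2.17, 15.9, 9.16, 3.85 and 18.8 CPM. Cox6a2, the muscle form of subunit 6a (chromosome 7, 128205435 to 128206387, minus strand), had 12.9, 32.2, 16.7, 1.82 and 34.5 CPM. Cox7a1 was at the edge of detection at E14.5, and all 3 were lower in adult than at P5, Cox6a2 most. The ubiquitous partners Cox7a2 (21.8, 42.8, 25.7, 17.6 and 36.2 CPM), Cox8a (32.8, 55.7, 24.6, 13.4 and 43.1 CPM) and Cox6a1 (26.0, 62.0, 19.5, 14.47 and 29.1 CPM) had their highest WT level at E18.5, as had Cox8b and Cox6a2. Cox7a1 had it at P5, but its intervals at E18.5 (2.32 to 4.39 CPM) and P5 (2.96 to 5.30 CPM) overlapped. The ratio of E18.5 over E14.5 was 32.9 for Cox7a1 (5.58 to 1329) against 1.97 for Cox7a2 (1.68 to 2.31), and 7.36 for Cox8b (4.73 to 12.0) against 1.70 for Cox8a (1.49 to 1.94). For subunit 6a the intervals of the pair overlapped, with 2.50 for Cox6a2 (2.05 to 3.06) and 2.39 for Cox6a1 (2.07 to 2.75).

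The bases just before the start sites of both members of the subunit 7a and subunit 8 pairs are shown because the pairs differ in how far their RNA moved between stages. They were read from RefSeq on GRCm38.p6, each 100 bases long and written 5′ to 3′ on the strand of the gene, and the Cox6a2 promoter is not analysed here. Capitals mark an E-box of the sequence CAGCTG, a motif of muscle regulatory factors, found 19 bases before the Cox8b start.
Cox7a1 (chr7:30184071-30184170, plus strand): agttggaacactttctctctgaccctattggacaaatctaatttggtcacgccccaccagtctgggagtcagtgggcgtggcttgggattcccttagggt
Cox7a2 (chr9:79759854-79759953, minus strand): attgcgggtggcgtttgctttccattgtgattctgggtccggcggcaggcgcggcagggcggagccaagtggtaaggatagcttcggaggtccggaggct
Cox8b (chr7:140900447-140900546, minus strand): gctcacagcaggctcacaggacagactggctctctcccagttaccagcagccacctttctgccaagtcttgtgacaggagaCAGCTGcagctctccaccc
Cox8a (chr19:7217617-7217716, minus strand): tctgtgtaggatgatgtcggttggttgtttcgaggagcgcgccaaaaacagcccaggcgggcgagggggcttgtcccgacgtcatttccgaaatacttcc

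Open chromatin at promoters was counted, here and below, in the same Ttn-high nuclei of each library as the RNA. The peak over the Cox7a1 start held 18.4, 27.6, 45.4, 52.5 and 24.5 CPM of all peak counts (peak CPM, from 203, 409, 534, 2026 and 141 counts). It was thus higher at each later WT stage, by 1.501 times (1.27 to 1.79), 1.65 times (1.45 to 1.88) and 1.16 times (1.05 to 1.27). The first and the second of these were the highest ratios among the 65 subunit genes with peaks compared. The peak over the Cox8b start held 22.6, 24.4, 34.3, 32.1 and 35.5 peak CPM, and that over the Cox6a1 start 46.1, 43.8, 48.2, 49.2 and 46.3. In adult the Cox7a1 RNA was 3.44-fold lower than at P5 (2.06 to 5.92) while the peak was 1.16 times higher. Cox7a1 spans 1935 bp, and a lower adult level was common among short genes. At least 2-fold lower in adult were 52.3% of all genes under 5 kb and 65.9% of those at a level like the subunit genes. The part of length in the Cox7a1 difference was not tested. Markers of other cells were present in the Ttn-high nuclei and differed between libraries, and their part in these peak counts was not tested.

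Within isoform sets, shares are not abundances, because 3′ counts that include intronic reads depend on gene length. Shares between libraries are not free of length either, since short genes were lower in adult. Cox6a2 spans 953 bp and Cox6a1 3340 bp, and the part of length in the adult share of Cox6a2 was not tested. Cox6a2 made up 33.2, 34.2, 46.0, 11.2 and 54.2% of the subunit 6a UMIs. Its adult share (exact binomial interval 7.95 to 15.1%) lay below that of every other library, and its KO share (50.5 to 58.0%) lay above that of E18.5 WT (31.5 to 36.9%). Cox8b made up 6.20, 22.2, 27.1, 22.4 and 30.4% of the subunit 8 UMIs, so its share was lowest at E14.5 and changed less afterwards. Cox7a1 made up 0.229, 4.55, 7.47, 2.29 and 2.55% of its set. Cox7a2l, a factor that joins complexes III and IV rather than a core subunit, made up 49.1, 35.3, 44.7, 63.2 and 37.1% of the same set. Among the c-ring genes of complex V, Atp5g1 made up 13.9, 20.7, 17.5, 18.7 and 18.52%, Atp5g2 55.2, 47.3, 41.9, 46.8 and 49.0%, and Atp5g3 30.9, 32.0, 40.6, 34.5 and 32.5% of the set. Between E14.5 and P5 the intervals of Atp5g2 (51.3 to 59.1 and 39.0 to 44.9%) and Atp5g3 (27.3 to 34.6 and 37.7 to 43.6%) did not overlap.

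**Figure D2:**
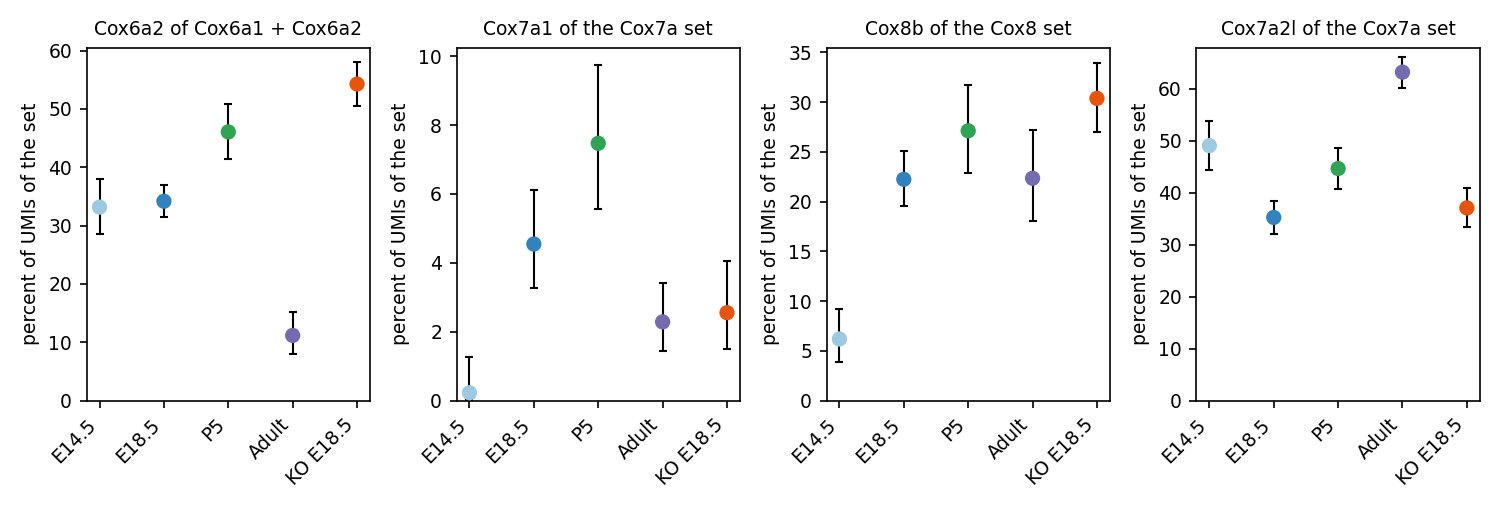
Share in percent (vertical axis) of each isoform in the UMIs of its set, by library (horizontal axis), with 95% exact binomial intervals. The Cox6a2 share was 11.2% in adult and 54.2% in KO, and the Cox8b share was 6.20% at E14.5 and 22.2 to 30.4% in the other libraries.

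The forms of other tissues were rare. Cox4i2, a form of hypoxia-responsive tissues such as lung, had 4, 2, 2, 1 and 3 UMIs and made up at most 0.766% of its pair with Cox4i1. The testis form Cox7b2 had 12, 5, 8, 6 and 3 UMIs beside 387 to 1139 of Cox7b. The testis form Cox6b2 had 9, 12, 5, 0 and 18 UMIs beside 210 to 697 of Cox6b1, and the adult 0 of 341 UMIs allows a share of up to 1.08% (exact binomial).

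Between E14.5 and E18.5, a time of fetal fiber growth, 35 of the 79 measured subunit genes were at least 2-fold higher, 0 were at least 2-fold lower, and 79 of 79 had a ratio above 1, beside 59.6% of all genes and 69.5% of genes of like level and gene length (like genes). Of all 14560 genes measured, 17.3% were at least 2-fold higher and 9.94% lower, and of like genes 14.3% were higher and 2.45% lower. Like genes were those within 2302 to 23387 bp and 8.88 to 83.3 CPM, the range of the middle members. The median log2 ratio of the subunit genes was 0.96, against 0.17 for all genes and 0.27 for like genes. The counting interval lay above 1 for 76 genes (96.2%) and held 1 for 3, beside 40.6% above 1 among all genes and 49.9% among like genes. With TMM factors, which reset the all-gene median to 0.02, the median was 0.81 and 22 genes were higher beside 14.4% of all genes.

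Every complex took part in this difference. Complex II had all 4 genes higher, namely Sdha and Sdhb, the flavin and iron-sulfur subunits that oxidise succinate, and Sdhc and Sdhd, the membrane anchors. Sdha had 87.1 and 197 CPM, a ratio of 2.26 (2.09 to 2.44), and Sdhb had 28.3 and 77.3 CPM, a ratio of 2.74 (2.40 to 3.13). Complex IV had 8 of 14 higher with a median of 1.19, complex V 9 of 17 with 1.01, complex III 3 of 8 with 0.90 and complex I 11 of 36 with 0.82. Below the highest ratio, that of Cox7a1, the leading genes of the other complexes were Atp5k, a small membrane subunit of complex V (4.43 and 22.0 CPM, 4.97 times, 3.62 to 6.97), Ndufb10, an accessory subunit of complex I (6.10 and 23.1 CPM, 3.79 times, 2.87 to 5.07), and Uqcr10, a small subunit of complex III (6.30 and 21.8 CPM, 3.46 times, 2.62 to 4.61). The catalytic genes included Ndufs1, an iron-sulfur subunit of complex I, at 2.08 times (1.92 to 2.25) and Atp5b, the catalytic beta subunit, at 2.25 times (2.06 to 2.46). Under 2-fold were Ndufv1, the core subunit that binds NADH, at 1.58 times, Uqcrc1 and Uqcrfs1, a core protein and the Rieske protein of complex III, at 1.75 and 1.65 times, and Atp5a1, the alpha subunit of complex V, at 1.44 times. The lowest ratios were those of Ndufc2 (1.16, 0.977 to 1.38), an accessory subunit, and Cox7a2l (1.19, 0.998 to 1.42), both with intervals that hold 1. The lowest of complex III was Uqcrb, a small subunit, at 1.34 times (1.06 to 1.70). Ndufa4, named after complex I but known as a component of complex IV, had 27.1, 42.1, 27.4, 20.2 and 40.0 CPM, and Cox4i1, the ubiquitous form of subunit 4, had 51.0, 63.9, 43.9, 17.7 and 47.7 CPM.

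**Figure D3:**
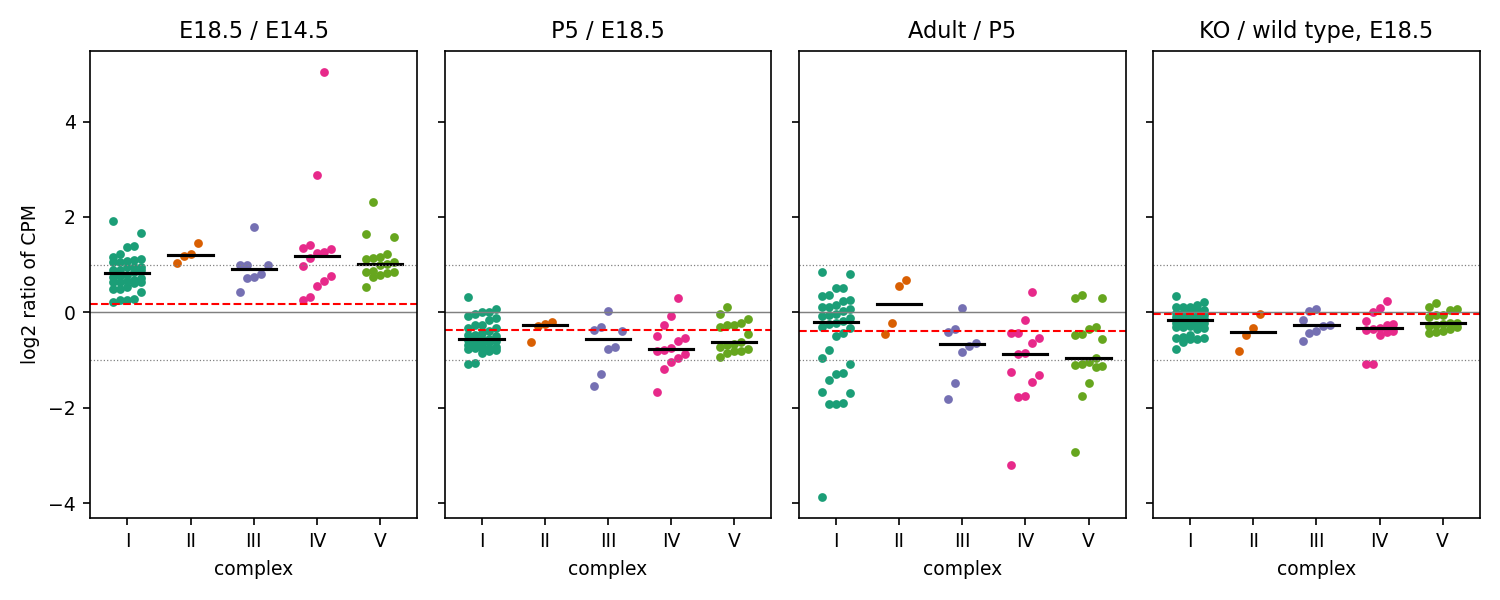
Log2 ratio of CPM (vertical axis) of each measured subunit gene, by complex and for each of the 4 comparisons, with the complex median as a bar and the median of all genes as a line. From the earliest stages to the genotypes, the median over subunit genes was 0.96, -0.59, -0.46 and -0.24, where all genes had 0.17, -0.37, -0.40 and -0.03.

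From E18.5 to P5, around birth, 7 of 79 subunit genes were at least 2-fold lower and 0 were higher, beside 21.4% lower and 7.68% higher among all 14528 genes and 21.5% lower and 3.58% higher among like genes. The median log2 ratio was -0.59, against -0.37 for all genes and -0.52 for like genes. The 7 calls are 8.86% of the subunit genes, a smaller share than among all or like genes, while their median was slightly lower. With TMM factors, under which all genes had a median of -0.02, the median was -0.23 and 2 genes were lower beside 12.6% of all genes. This comparison shares the E18.5 library with the previous one, so a high E18.5 value raises the earlier ratio and lowers the later.

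The 7 genes were Cox6a1, Cox6b1 and Cox8a of complex IV, Uqcr10 and Uqcr11 of complex III, and Ndufa6 and Ndufb5 of complex I. Cox6a1 had 62.0 and 19.5 CPM, 3.17-fold lower at P5 (2.74 to 3.68), and Uqcr10 had 21.8 and 7.44 CPM, 2.93-fold lower (2.30 to 3.75). Ndufb5, an accessory subunit of the membrane arm, had 31.5 and 14.8 CPM, 2.13-fold lower (1.78 to 2.55). Complex II and complex V had 0 genes past 2-fold, with medians of -0.27 and -0.62, and the lowest of complex V was Atp5mpl, a small membrane subunit, at 33.4 and 17.4 CPM. Among complex II genes Sdhb was the lowest, with 77.3 and 50.4 CPM. Ndufs4, an accessory subunit needed for complex I assembly (chromosome 13, 114287795 to 114388258, minus strand), went the other way with 185 and 230.0 CPM, a ratio of 1.24 (1.18 to 1.32). Uqcrc2, a core protein of complex III, was level at 95.4 and 97.9 CPM (ratio 1.03, 0.946 to 1.11), and Atp5l, subunit g of complex V, at 83.8 and 90.9 CPM (1.09, 0.997 to 1.18).

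In adult compared with P5, 26 of 79 subunit genes were at least 2-fold lower and 0 were higher, beside 33.8% lower and 8.31% higher among all 13807 genes and 26% lower and 5.04% higher among like genes. The median log2 ratio was -0.46, against -0.40 for all genes and -0.39 for like genes. Scaling moved this difference to near 0. With TMM factors the median of all genes was 0.06 and that of the subunit genes -0.01, with 15 lower and 4 higher beside 26.8% lower and 15.9% higher among all genes. A scaling factor shifts all genes of a library alike, so the order of the subunit genes, with Ndufa13 at the low end and Ndufb5 at the high end, is the same under both.

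Ndufa13, an accessory subunit of complex I also known as GRIM-19 (chromosome 8, 69894180 to 69902558, minus strand), had 107, 222, 171, 19 and 194 UMIs, or 10.5, 17.5, 14.0, 0.962 and 17.5 CPM. Its adult level alone stood apart, 14.54-fold below P5 (9.03 to 24.7). It was the only subunit gene that overlapped another counted gene on the same strand, where reads may be assigned to neither gene. The peak over its promoter window, which starts 537 bp from the start given in the files, held 28.4, 25.5, 30.7, 26.6 and 36.4 peak CPM, and its adult ratio to P5 was 0.867 (0.769 to 0.981). Next came Cox6a2, 9.16-fold lower (6.40 to 13.4), and Atp5k, with 12.3 CPM at P5 and 1.62 CPM in adult, 7.57-fold lower (5.14 to 11.5). Uqcr11, a small subunit of complex III, had 7.52 and 2.13 CPM, 3.54-fold lower (2.43 to 5.23).

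The interval of the adult ratio lay above 1 for 13 genes (16.5%). This was a smaller share than among all genes (23.9%) or like genes (20.1%). None of the 13 reached 2-fold. They included Ndufb5 (14.8 and 26.7 CPM, 1.81 times, 1.52 to 2.15), Ndufa12, an accessory subunit of complex I (26.5 and 46.4 CPM, 1.75 times, 1.54 to 1.99), Sdhc (79.1 and 127 CPM, 1.61 times, 1.49 to 1.73), Sdhb (50.4 and 74.3 CPM, 1.47 times, 1.34 to 1.62), Ndufs3, a core subunit of complex I (55.9 and 79.3 CPM, 1.42 times, 1.30 to 1.56), Ndufa7, an accessory subunit (14.1 and 19.9 CPM, 1.42 times, 1.18 to 1.71), Cox7a2l (24.0 and 32.2 CPM, 1.34 times, 1.17 to 1.55), Atp5f1, subunit b of the complex V stalk (89.4 and 115 CPM, 1.29 times, 1.20 to 1.39), and Ndufs4 (230.0 and 275 CPM, 1.20 times, 1.14 to 1.25), and the others were Ndufv2, Ndufb2, Atp5l and Atp5c1, at 1.23 to 1.29 times. Of the 82 genes, 8 had their highest WT level in adult, namely Ndufa12, Ndufs3, Ndufs4 and Ndufv2 of complex I, Sdhc, Cox7a2l, and Atp5c1 and Atp5l of complex V. Several catalytic genes stayed close to their P5 level, with Ndufs1 at 153 and 141 CPM, Ndufv1 at 13.2 and 12.8 CPM and Uqcrc1 at 33.8 and 36.2 CPM. Atp5b had 126 and 64.8 CPM, 1.95-fold lower (1.81 to 2.10), and the c-ring genes Atp5g1, Atp5g2 and Atp5g3 were 2.20-, 2.11- and 2.77-fold lower. By complex, 10 genes of complex I, 0 of complex II, 2 of complex III, 6 of complex IV and 8 of complex V were at least 2-fold lower, with medians of -0.20, 0.17, -0.67, -0.87 and -0.96.

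The adult ratio followed gene length. Across the 79 genes, Spearman's rho between gene length and the log2 ratio was -0.33, 0.50 and 0.76 from the earliest to the latest pair of stages and -0.06 between the genotypes, and the genes share libraries and depth. Of 26 measured subunit genes under 5 kb, 19 (73.1%) were at least 2-fold lower in adult, with a median of -1.47. Among genes of that length, 65.9% of those of like level and 52.3% of all were lower. Of 43 subunit genes between 5 and 20 kb, 7 (16.3%) were lower, beside 22.7% and 30.0%, with a median of -0.32. Of 10 at 20 kb or more 0 were lower, beside 28.1% and 32.8%, with a median of 0.12. The medians of genes of like level outside the list also rose with length, at -1.67, -0.36 and -0.21 in these classes. The subunit genes under 5 kb summed to 347, 700, 398, 176 and 585 CPM and those of 20 kb or more to 625, 1101, 1034, 1121 and 893 CPM, so the share of short genes in the subunit UMIs was 17.6, 19.1, 14.2, 7.10 and 19.4%.

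Long and short genes differ in how much of their nuclear RNA is intronic, and the counts included intronic reads. The 80 cytosolic ribosome genes, which are mostly short, summed to 3687, 3350, 1412, 600.3 and 4184 CPM, and 74 of those measured were at least 2-fold lower in adult than at P5. The short subunit genes were lower in adult at every depth of nuclei. In those of 400 to 2000, 2000 to 5000 and over 5000 UMIs, the short subunit genes had 483, 474 and 385 CPM at P5 and 182, 172 and 177 CPM in adult. The part of intronic reads or of free RNA in these differences was not tested.

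**Figure D4:**
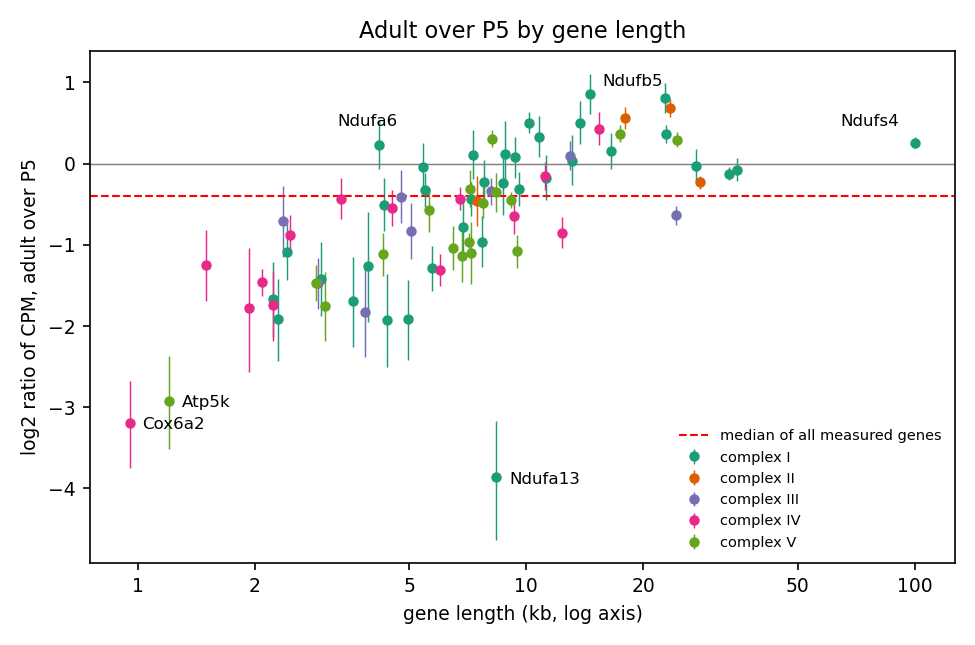
Log2 ratio of CPM in adult over P5 (vertical axis) against gene length in kb (horizontal axis, log scale), with 1 point per measured subunit gene colored by complex. Genes under 5 kb had a median of -1.47 and genes of 20 kb or more a median of 0.12, with Ndufa13, Cox6a2 and Atp5k lowest.

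In KO compared with WT at E18.5, the question was how the loss of excitation-contraction coupling bears on these genes. The subunit genes were slightly lower as a set, with 62 of 79 ratios (78.5%) below 1, beside 53.2% of all genes and 64.3% of like genes. Their median log2 ratio was -0.24, where all genes had -0.03 and like genes -0.13. The counting interval lay below 1 for 39 (49.4%), beside 28.3% of all genes and 37.3% of like genes, and held 1 for 40. At 2-fold, 2 genes were lower and 0 higher, beside 5.52% lower and 6.2% higher among all 14589 genes and 3.77% lower and 0.934% higher among like genes, so at this size the subunit genes were changed no more often than the rest. The sums of the complexes were 1.17-fold (I, 1.14 to 1.19), 1.39-fold (II, 1.33 to 1.46), 1.20-fold (III, 1.14 to 1.26), 1.26-fold (IV, 1.22 to 1.31) and 1.19-fold (V, 1.16 to 1.23) lower in KO. The sums of proteasome and mitochondrial ribosome genes were also lower, 1.18-fold (1.16 to 1.21) and 1.15-fold (1.12 to 1.17). That of cytosolic ribosome genes was 1.25 times higher (1.23 to 1.27). A fall of the size seen in complexes I, III and V was thus not particular to the subunit genes.

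The 2 genes were Cox6a1, with 62.0 and 29.1 CPM (786 and 323 UMIs), 2.13-fold lower (1.87 to 2.44), and Cox7a1, with 3.24 and 1.53 CPM (41 and 17 UMIs), 2.11-fold lower (1.17 to 3.97). Neither reached 2-fold in nuclei with Ttn at 2% or more, where the log2 ratios were -0.95 and -0.79. Cox7a1 also lay under 2-fold with mean CPM over nuclei (-0.75) and without nuclei holding non-muscle markers (-0.60), and a minimum of 50 UMIs leaves it out. The other muscle forms did not share this, since Cox6a2 had 32.2 and 34.5 CPM (ratio 1.07, 0.929 to 1.23) and Cox8b 15.9 and 18.8 CPM (1.18, 0.968 to 1.44). The peaks over the Cox6a1 and Cox7a1 starts had KO ratios of 1.06 (0.913 to 1.22) and 0.890 (0.730 to 1.08). Complex II was lowest after these. Sdhb had 77.3 and 44.2 CPM, 1.75-fold lower (1.57 to 1.95), and Sdha 197 and 142 CPM, 1.39-fold lower (1.30 to 1.48), while Sdhd had 15.7 and 15.3 CPM. In the other complexes the lowest were Ndufb3, an accessory subunit of complex I, 1.70-fold lower (1.47 to 1.97), Uqcrq, a small subunit of complex III, 1.51-fold lower (1.28 to 1.79), and Atp5b, 1.36-fold lower (1.26 to 1.46). At the other end stood Ndufa1, a small accessory subunit of complex I (9.79 and 12.3 CPM, 1.26 times, 0.981 to 1.62), and Atp5e, the epsilon subunit of complex V (18.1 and 20.6 CPM, 1.14 times, 0.946 to 1.38), with intervals that hold 1.

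Other values moved with the genotype. KO nuclei held a median of 10333 UMIs against 6976 in WT, their mesenchymal markers summed to 436 against 1283 CPM and their progenitor markers to 325 against 167 CPM, and their cytosolic ribosome genes to 4184 against 3350 CPM. Without nuclei that held 3 or more UMIs of 1 non-muscle marker list, 210 KO and 505 WT nuclei were left. There the KO median was -0.32 and 6 subunit genes were at least 2-fold lower. The share of all genes lower in this setting is not given, so the 6 cannot be set against it. In nuclei of over 5000 UMIs the 82 genes had 3001 CPM in KO and 3531 CPM in WT. At 2000 to 5000 UMIs, with 71 and 375 nuclei, they had 3230 and 4632 CPM.

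Adult nuclei were then separated by the myosin heavy chain gene that led their myosin UMIs, without use of the subunit genes. Myh4 marks the fastest, glycolytic fibers, Myh1 and Myh2 mark fast fibers of rising oxidative capacity, and Myh7 marks slow oxidative fibers. The 82 genes summed to 2178 CPM in 2965 Myh4-led nuclei (2154 to 2202), 3714 CPM in 456 Myh1-led nuclei (3638 to 3791), 3833 CPM in 203 Myh2-led nuclei (3714 to 3955) and 3392 CPM in 20 Myh7-led nuclei (3015 to 3803). The intervals of the Myh1-led and Myh2-led classes overlap, and the Myh4-led class lay apart from the others. Depth was alike, with medians of 4073, 4160.5, 3935 and 4113 UMIs. All nuclei came from 1 library and are not replicates, and reads may be shared among the closely similar fast myosin genes.

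Between Myh2-led and Myh4-led nuclei the difference spanned all complexes. Complexes I to V had 1500 and 953, 569 and 306, 271 and 140.4, 426 and 209, and 1067 and 570 CPM in Myh2-led and Myh4-led nuclei. Of 75 subunit genes measured, 71 had a ratio above 1, beside 53% of all 10939 genes, and 21 were at least 2-fold higher and 0 lower, beside 11.8% and 10.6% of all genes. The median log2 ratio was 0.78 against 0.05 for all genes and 0.02 for like genes, and the complex medians were 0.58, 0.80, 0.90, 0.87 and 0.95. The counting interval lay above 1 for 43 subunit genes (57.3%), beside 18.8% of all genes and 14.3% of like genes, and below 1 for 0.

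The highest ratios in each complex were those of Ndufb7, an accessory subunit of complex I (3.98, 1.67 to 8.49), Sdhb (2.66, 2.22 to 3.17), Uqcrq (3.65, 2.08 to 6.09), Cox7b, a small subunit of complex IV (2.96, 2.37 to 3.66), and Atp5g1 (3.31, 1.83 to 5.65). Ndufb3 followed closely in complex I (3.23, 2.38 to 4.32). The ratios below 1 were those of Ndufs5 (0.753), Ndufc2 (0.849), Ndufs6 (0.849) and Atp5e (0.951). Cox8b, a muscle form, had a ratio of 1.19 with a wide interval (0.312 to 3.25). The 12 measured mitochondrially encoded genes had a median of 0.78 with 12 of 12 above 0 and the 17 citrate cycle genes a median of 0.79 with 17 of 17 above 0, whereas the medians were 0.16 for assembly factors, 0.17 for the mitochondrial ribosome, -0.11 for the cytosolic ribosome and -0.28 for the proteasome. Mitochondrially encoded genes summed to 671 CPM in Myh1-led, 672 CPM in Myh4-led and 1164 CPM in Myh2-led nuclei, so Myh1-led nuclei did not share the difference. Citrate cycle genes summed to 2517 CPM in Myh1-led and 1488 CPM in Myh4-led nuclei.

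**Figure D5:**
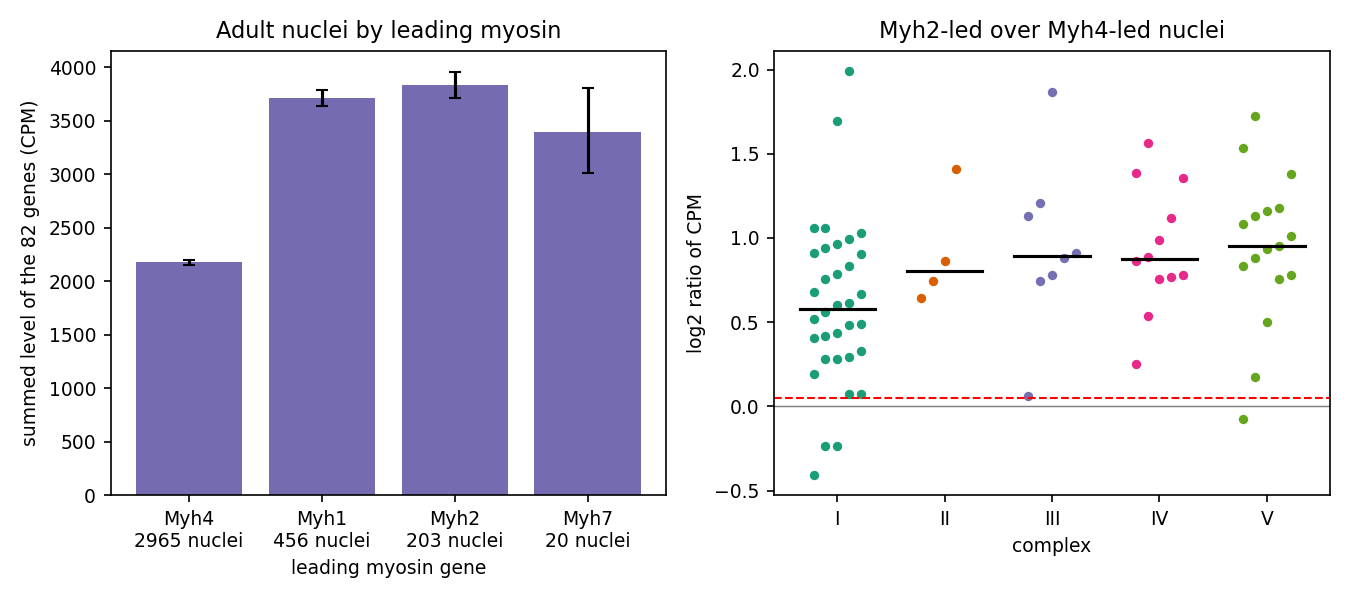
Left, summed CPM of the 82 genes (vertical axis, from 0) in adult nuclei led by Myh4, Myh1, Myh2 or Myh7, with 95% Poisson intervals. Right, log2 ratio of CPM of each measured subunit gene in Myh2-led over Myh4-led nuclei, by complex. Bars there mark the complex medians and a dashed line the median of all genes. The Myh4-led nuclei had the lowest sum, with 2178 CPM against 3833 CPM in Myh2-led nuclei.

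Endothelial nuclei of the same libraries gave a reference outside muscle. They were taken by at least 5 UMIs over 10 endothelial markers and a Ttn share under 0.5%, but they also held mesenchymal markers at 1576, 10019, 10411, 4933 and 2834 CPM, so the gate was not clean. Against them the 82 genes had ratios of 1.04, 1.70, 1.53, 2.27 and 1.58. With under 5 mesenchymal UMIs also required, a limit chosen after seeing the data, 220, 92, 76, 12 and 100 nuclei stayed and the ratios were 0.981 (0.934 to 1.03), 1.58 (1.49 to 1.67), 1.27 (1.19 to 1.37), 2.20 (1.44 to 3.55) and 1.43 (1.37 to 1.502). With the stricter limit, the interval of the ratio held 1 at E14.5 and lay above 1 at the later stages and in KO. In these stricter nuclei Cox6a2 had 1, 2, 1, 0 and 2 UMIs, Cox7a1 0, 0, 0, 0 and 1, and Cox8b 0 in all 5 libraries. Cox6a2 stood there at 1.18, 3.84, 2.77, 0 and 2.25 CPM, below the 12.9 to 34.5 CPM of Ttn-high nuclei of the fetal, neonatal and KO libraries. In adult the floor of 3 counts in 12 nuclei stood at 161 CPM, so its 1.82 CPM in Ttn-high nuclei could not be compared.

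The promoters of the subunit genes were searched for motifs of factors known to act on mitochondrial or muscle genes. A RefSeq window (250 bases before to 50 after the start) matched 68 of the 82 genes, and those not matched included Cox4i2, Cox6a2, Uqcrq, Atp5mpl, Ndufa2, Ndufs1, Uqcrc2, Ndufb9, Cox6c, Atp5a1, Uqcrb, Sdhc and Cox4i1. On either strand, the NRF1 motif (GCGCA joined to TGCGC) was in 5 windows (7.35%), beside 1.15% of all 20574 windows and 1.86% of the 11603 windows of genes with at least 20 UMIs. The ETS motif CCGGAAG was in 16 windows (23.5%, beside 11.03% and 16.9%) and the YY1 motif (AAGATG joined to GCGG) in 4 (5.88%, beside 1.16% and 1.97%), those of Ndufa9, Ndufs7, Ndufs6 and Ndufs4. The MEF2 motif (CTA, any 4 bases, TAG) was in 1 (1.47%, beside 3.71% and 3.197%), that of Cox5b, the E-box CAGCTG in 6 (8.82%, beside 15.9% and 15.9%) and TATAAA in 8 (11.8%, beside 13.4% and 7.55%). Mean GC content was 57.5% in the subunit windows, 55.2% in all windows and 60.2% in those of measured genes. A MEF2 match can hold TATAAA, and otherwise no motif contains another. A match is a description of the sequence.

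The NRF1 motif was in the windows of Atp5k, Cox6a1, Uqcrc1, Atp5g2 and Ndufa11. Of these, 4 are shown with the bases up to the start or around the motif, since Atp5k and Cox6a1 were among the genes that differed most between stages and genotypes and Atp5g2 and Ndufa11 give the same motif in other surroundings. Capitals mark the NRF1 motif, and in Cox6a1 also the ETS motif on the opposite strand, all before the start.
Cox6a1 (chr5:115348959-115349120, minus strand): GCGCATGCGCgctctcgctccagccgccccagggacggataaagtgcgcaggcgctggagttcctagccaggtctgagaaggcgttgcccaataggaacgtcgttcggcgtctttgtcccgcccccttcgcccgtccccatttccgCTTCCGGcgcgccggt
Atp5k (chr5:108434410-108434479, minus strand): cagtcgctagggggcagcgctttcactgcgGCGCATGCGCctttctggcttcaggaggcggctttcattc
Atp5g2 (chr15:102671050-102671119, minus strand): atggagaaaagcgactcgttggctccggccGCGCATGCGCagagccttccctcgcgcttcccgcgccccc
Ndufa11 (chr17:56717672-56717741, plus strand): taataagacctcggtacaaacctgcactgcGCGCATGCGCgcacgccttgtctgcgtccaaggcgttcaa

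Nearly all of these promoters were open in every library. A peak lay over 66 of the 68 windows in each library, not over those of Cox7b2 and Atp5j, where 81.4 to 84.0% of the windows of measured genes had one. The 66 peaks covered 58283 to 58835 bp per library and held 0.260, 0.274, 0.317, 0.320 and 0.310% of all peak counts. Per kb they held 44.4, 47.0, 54.3, 54.7 and 52.8 peak CPM, beside 44.5, 44.5, 48.2, 46.1 and 47.4 for measured genes. The median log2 peak ratios of 65 subunit genes were 0.09, 0.20 and 0.00 between successive stages and 0.18 between KO and WT, beside 0.01, 0.06, -0.11 and 0.04 for all genes. None of these 65 genes reached 2-fold in either direction. Cox6b2, which has a peak but was left out of the 65 for its RNA under 20 UMIs, had 22.4, 19.0, 9.10, 4.89 and 24.4 peak CPM and was 2.09-fold lower at P5 than at E18.5 (1.67 to 2.63). Among all genes 1.09, 0.929, 0.831 and 0.3% of the peaks were at least 2-fold higher and 1.23, 1.11, 8.49 and 1.31% lower in the same comparisons.

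The other genes of the pathway did not all follow the subunit genes. Among all genes, 17.3% were at least 2-fold higher at E18.5, and at P5 21.4% were lower and 7.68% higher. In adult 33.8% were lower and 8.31% higher, and in KO 5.52% were lower. The 13 mitochondrially encoded subunits, which are read from mitochondrial RNA left in a preparation of nuclei, summed to 3038, 2679, 920, 803 and 2718 CPM, with a median log2 ratio of -0.29 for E18.5 over E14.5, and with 10 of 13 at least 2-fold lower at P5 than at E18.5. The 45 assembly factors, which build the complexes, summed to 1295, 1730, 1539, 2282 and 1630 CPM, with 9 higher at E18.5, 10 lower at P5, and 5 higher and 7 lower in adult. The 17 citrate cycle and pyruvate dehydrogenase genes, which feed electrons to the chain, summed to 800, 1528, 1475, 1707 and 1155 CPM, with 6 higher at E18.5, 0 lower at P5 and 1 higher in adult. In KO their median was -0.44 with 0 genes past 2-fold.

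The 16 regulators of mitochondrial biogenesis, such as Ppargc1a and Esrrg, summed to 623, 1181, 1800, 2331 and 1148 CPM, with 5 higher at E18.5, 2 higher and 3 lower at P5 and 2 higher in adult. From E18.5 to P5 a part of the list carried the rise of the sum. There 12 of the 16 had a ratio below 1, with a median log2 ratio of -0.39 against -0.37 for all genes. In adult over P5, 13 of the 16 had a ratio above 1. Of the 8 other lists, these regulators, the assembly factors and the citrate cycle genes had their highest WT sum in adult. The 7 subunits and carriers outside the name pattern, which include cytochrome c and the ADP/ATP carriers, summed to 112, 315, 286, 204 and 211 CPM, with 5 of 7 higher at E18.5, 4 lower at P5, 3 lower in adult and 2 lower in KO. The 78 mitochondrial ribosome genes summed to 1146, 1494, 1223, 1290 and 1302 CPM, with 8 higher at E18.5, 17 lower at P5, 20 lower and 3 higher in adult and 3 lower in KO. The 39 proteasome genes, taken as a housekeeping reference, summed to 1431, 1633, 1500 and 1447 CPM in WT and 1383 CPM in KO, with at most 5 past 2-fold in any comparison.

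Some values are uncertain in the counting. By sequence, 26 subunit genes had a near-identical copy elsewhere in the annotation (at least 95% identity over 100 bases), and for Ndufc1, Atp5l and Atp5g1 such a copy was itself counted, so their reads may have been split. As many as 26 subunit genes overlapped a counted gene on the opposite strand.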

How the data were processed

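The deposited counts were not normalized. They hold UMIs of genes and ATAC counts of peaks from Cell Ranger ARC 2.0.0, run by the authors on mm10 (GRCm38, Ensembl annotation). Intronic reads entered the gene counts, and each library had its own peak calls. Use of strand is not given in the sources used here. The limits in the study's methods were applied, namely RNA UMIs over 400 and under 25000, a mitochondrial share under 10% and ATAC counts under 70000. A supplementary legend of the study also gives a minimum of 400 ATAC counts, which was used here only as an alternative. This left 4812 of 4990, 4261 of 4435, 3747 of 3848, 5106 of 5407 and 3228 of 3621 barcodes of WT by age and of KO. Each WT library kept more nuclei than the study counted for it. The KO file holds fewer barcodes than the nuclei that the study counted for this library. No doublet caller was run, and an alternative leaves out nuclei with 3 or more UMIs of 1 non-muscle marker list.

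UMIs of nuclei with Ttn at 1% or more were summed per library. Levels are CPM with exact Poisson 95% intervals, ratios of CPM have exact conditional (Clopper-Pearson) 95% intervals and shares exact binomial ones. A gene was measured in a comparison with at least 20 UMIs in 1 of its libraries, and a ratio of at least 2 was called. The like genes lay between the 10th and the 90th percentile of the members in gene length and mean CPM. The computation used Python 3.11.15, numpy 2.4.6, scipy 1.17.1 and pandas 2.3.3, with TMM factors from edgeR 4.0.16 and size factors from DESeq2 1.42.0 (R 4.3.3) as alternatives, and was tested on simulated data. Adult nuclei with at least 5 myosin UMIs were assigned to the myosin gene that held 60% or more of them. Promoter windows came from RefSeq on GRCm38.p6, and copies were sought with blastn 2.17.0.

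The members and all lists were chosen with earlier results of these data known. Genes named in the text are the isoform sets, core subunits (Ndufs1, Ndufv1, Ndufa4, Sdha, Sdhb, Uqcrc1, Uqcrfs1, Atp5a1 and Atp5b, with 1 more that is not reported here), and the highest and lowest member of each complex in each comparison. Others were named after their values were seen.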

Additional observations from a re-analysis of the deposited data

How the results depend on the processing

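No paired analysis was possible because each group has 1 library. Scaling mattered most. With TMM factors the median log2 ratio of the subunit genes between successive stages was 0.81 (22 higher), -0.23 (2 lower) and -0.0068 (4 higher and 15 lower). With DESeq2 size factors these were 0.77 (19 higher), -0.21 (2 lower) and 0.067 (6 higher and 12 lower), the adult median thus changing sign. In nuclei with Ttn at 2% or more, 0 genes were lower in KO, the ratios to endothelial nuclei were 1.79 at E18.5 and 1.70 in KO, and the summed level of P5 nuclei with 400 to 2000 UMIs was 1.45 times that of nuclei over 5000 UMIs, against 1.05 in the main nuclei and 0.947 with Ttn at 0.5% or more. Without filters on nuclei, the median was 0.84 for E18.5 over E14.5 and -0.32 for KO over WT, 11 genes were lower at P5, and the endothelial ratios were 1.12 (E14.5), 1.75 (E18.5) and 1.53 (KO). Without nuclei that held 3 or more UMIs of a non-muscle marker list, the median was 1.05 for E18.5 over E14.5 and -0.32 for KO, 12 genes were lower at P5, 1 was higher in adult and 6 were lower in KO, the endothelial ratios were 1.84 (E18.5) and 1.59 (P5), and the depth ratio in adult was 0.777 against 0.819. With mean CPM over nuclei, the E18.5 median was 1.04 and 1 gene was lower in KO. A minimum of 50 UMIs left 1 gene lower in KO, and a minimum of 5 UMIs added 1 gene lower at E18.5. At 1.5-fold, 66 genes were higher at E18.5, 40 lower at P5, 3 higher in adult and 6 lower in KO. Except for TMM factors, shares over all genes are not given for these settings. Their counts therefore cannot be set against the rest of the genes. The stricter endothelial nuclei, chosen after seeing the data, gave 0.981 (E14.5), 1.58 (E18.5), 1.27 (P5) and 1.43 (KO). The cause of each shift was not tested. Of the other summary values, 178 stayed within their limits. Of 540 values of named genes called at 2-fold over all settings, 0 changed sign and 57 lay under 2-fold. Depth limits Cox4i2, Cox7b2 and Cox6b2, with at most 18 UMIs, then Cox7a1, with 1 to 49 UMIs, and adult values of short genes.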
